A study of Rattus norvegicus with 4 samples.

Results

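Matrix metalloproteases, membrane Adams and the urokinase plasminogen activator system cut the extracellular matrix and the outer parts of cell surface proteins, and Timps inhibit the metalloproteases among them. The set described here holds Mmp9, Mmp12, Mmp14, Adam8, Adam10, Adam17, Timp1, Timp2, Plau and Plaur, and its members are all probe sets that the platform's annotation assigns to 1 of these symbols alone. That rule found 10 genes with 17 probe sets, of 14217 genes and 31042 probe sets that were not controls. RNA came from AA4+ cells of the pancreatic lymph node, described as mast cells, of female BioBreeding rats at day 65. The groups were DRlyp/lyp rats, labelled diabetic prone, which are homozygous for the lyp allele of Gimap5, and DR+/+ rats, labelled diabetic resistant, which carry the normal allele. One RNA pool of 8 animals stood for each genotype, and 2 separate amplifications of it were hybridised to Affymetrix rat genome arrays, giving 4 arrays. The p-values below therefore measure the spread between amplifications of 1 pool, compare 2 pools rather than 2 strains, and hold no spread between animals.

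Matrix metalloproteases are made as inactive zymogens with a zinc ion in the active site, and Timps bind that site and block it. Adam10 and Adam17 sit in the membrane and release the outer parts of receptors, adhesion molecules and cytokines. Urokinase, the product of Plau, turns plasminogen into plasmin at the cell surface, where its receptor Plaur holds it, and plasmin can activate several metalloprotease zymogens. In lymphoid tissue macrophages, neutrophils and other myeloid cells are well known sources of Mmp9, Mmp12, Adam8 and urokinase, and mast cells are known to activate metalloprotease zymogens through their granule proteases.

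Of the 10 genes, Mmp12, Plau and Adam10 were lower and Adam8 and Adam17 higher in DRlyp/lyp cells (limma, threshold of 0.05 on the adjusted p). Mmp12 was 5.24-fold lower, Plau 2.61-fold lower and Adam10 2.07-fold lower, and Adam8 was 1.56-fold and Adam17 1.21-fold higher. Mmp9, Mmp14, Timp1, Timp2 and Plaur did not pass the threshold. Of the 17 probe sets, 12 lay above the filter on dim probe sets, a signal of 28.3, on at least 2 arrays, and were tested; these covered all 10 genes. Of the 12 tested, 5 were called (41.7%), 2 higher and 3 lower, where 39.2% of all 16068 probe sets tested were called, 19.3% higher and 19.9% lower. Counted over genes by their brightest tested probe set, 42.0% of all 9349 genes tested were called. The members' share thus lay near that of all probe sets. Their median log2 difference was -0.25 where the median over all tested was 0.00, and their median absolute difference was 0.44 where that over all tested was 0.39. The arrays of the 2 pools did not overlap for 9 of the 12, where 70.0% of all tested probe sets had no overlap.

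**Figure D1:**
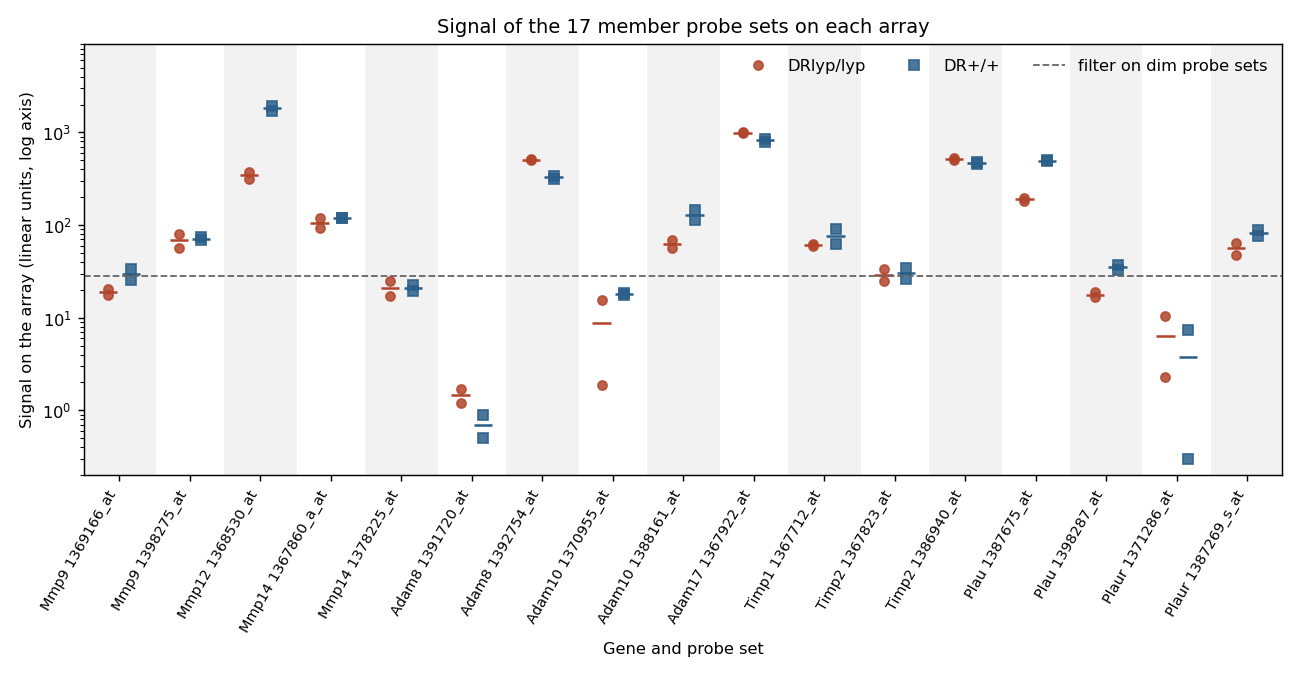
Signal of each of the 17 member probe sets (x axis) on each array (y axis, linear units on a log axis), with DRlyp/lyp arrays as circles on the left and DR+/+ arrays as squares on the right of each column; short lines are the means of the 2 arrays and the dashed line is the filter of 28.3. Mmp12 1368530_at, Plau 1387675_at and Adam10 1388161_at lie lower in DRlyp/lyp, Adam8 1392754_at lies higher, and 5 probe sets lie below the filter on at least 3 arrays.

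Arrays of 1 pool correlated at 0.983 (DRlyp/lyp) and 0.975 (DR+/+) over the tested probe sets, and arrays of different pools at 0.908 to 0.916. The 3′ minus 5′ log2 signal of beta-actin, which grows as amplified RNA gets shorter, was 4.43 and 4.55 on the DRlyp/lyp arrays, against 3.01 and 3.10 on the DR+/+ arrays. That of GAPDH was 2.49 and 2.44 in DRlyp/lyp against 1.74 and 1.57 in DR+/+. These values moved with the pools, and their part in the differences was not tested. Of the mast cell markers, the carboxypeptidase Cpa3 read 527.8 and 515.6 in DRlyp/lyp against 425.8 and 462.1 in DR+/+, while Kit lay below the filter on all arrays, at 1.4 and 2.0 in DRlyp/lyp against 10.4 and 11.3 in DR+/+. Of the T cell, B cell and macrophage markers on the array, all but Cd28 were tested in these cells. The exocrine pancreas markers tested were above the filter in DRlyp/lyp, but 13 of 19 lay below it on both DR+/+ arrays. In RNA from many cells, fewer cells of a type and less RNA per cell cannot be told apart. Centring each array on its median moved the median of all tested probe sets by -0.11, and 36.1% of calls were then higher, against 49.3% with the deposited scaling.

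Of the secreted metalloproteases, Mmp12 passed the threshold and Mmp9 did not. Mmp12, the macrophage metalloelastase, which cuts elastin, read 375.4 and 317.2 on the DRlyp/lyp arrays, against 1694.3 and 1932.7 on the DR+/+ arrays. Both DRlyp/lyp values lay far under both DR+/+ values. The means were 346 ± 41.2 and 1813.5 ± 169 (SD, n = 2 arrays each), a log2 difference of -2.39 ± 0.11 (SE; 95% interval -2.63 to -2.15; limma adjusted p = 2.75e-08). The difference ranked 33 from the lowest among the 16068 probe sets tested. Under 13 other settings of the processing, 4 of which left out 1 array, it was always called and lay between -2.51 and -2.23. With centred arrays, where all probe sets shifted by -0.11, it was -2.50.

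The RefSeq promoter window of Mmp12 is shown because it belongs to the member with the largest difference, and that of Plaur because it holds the other match to the AP-1 letters. Both run from 250 bases before to 50 bases after the gene's start, on the plus strand of GRCr8, at chr8:12866402-12866701 for Mmp12 and chr1:89181113-89181412 for Plaur. Capitals mark matches, on either strand, to the AP-1 letters TGANTCA and the TATA box letters TATAAA.
Mmp12: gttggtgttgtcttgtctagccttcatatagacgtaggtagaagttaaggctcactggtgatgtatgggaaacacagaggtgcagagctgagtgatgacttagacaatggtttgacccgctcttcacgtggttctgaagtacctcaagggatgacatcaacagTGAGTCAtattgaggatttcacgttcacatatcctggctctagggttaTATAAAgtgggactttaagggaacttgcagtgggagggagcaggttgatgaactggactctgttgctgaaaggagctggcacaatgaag
Plaur: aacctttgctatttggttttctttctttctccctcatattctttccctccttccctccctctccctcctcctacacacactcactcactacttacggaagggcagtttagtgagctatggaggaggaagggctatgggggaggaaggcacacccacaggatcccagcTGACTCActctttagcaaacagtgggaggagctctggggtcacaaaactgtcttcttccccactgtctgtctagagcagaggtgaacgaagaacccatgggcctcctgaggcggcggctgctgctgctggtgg
In the Mmp12 window TGAGTCA began 87 bases before the start, and TATAAA began 39 bases before it. In the Plaur window TGACTCA began 83 bases before the start. Of all 33469 RefSeq promoter windows of the same length, 7.33% held TGANTCA and 14.2% held TATAAA. Of the 8 members with a window, 2 held the AP-1 letters and 1 held the TATA letters. The NF-kB letters, GGG and TTCC with any 3 bases between them, found in 5.37% of all windows, matched in 0 of the 8. Mmp9 and Mmp14 had no entry. A match in these letters describes the sequence and does not show that a factor binds there.

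Mmp9, the gelatinase that cuts denatured collagen and basement membrane collagen, read 80.6 and 56.5 on the DRlyp/lyp arrays, against 74.0 and 68.2 on the DR+/+ arrays. The groups overlapped, and the log2 difference of -0.07 ± 0.27 (SE) did not pass the threshold (95% interval -0.66 to 0.51; limma adjusted p = 0.852). The interval leaves room for changes of either sign. Its second probe set, 1369166_at, read 17.8 and 20.2 in DRlyp/lyp against 25.7 and 33.9 in DR+/+ and lay above the filter on 1 array only, so it was not tested.

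Mmp14, a membrane-bound metalloprotease that activates the Mmp2 zymogen, read 119.8 and 92.9 in DRlyp/lyp, against 119.4 and 119.4 in DR+/+. The log2 difference was -0.18 (95% interval -0.63 to 0.28; limma adjusted p = 0.531). One DRlyp/lyp array matched the DR+/+ level and the other lay below it. The second Mmp14 probe set, 1378225_at, read between 17.3 and 24.7 on the 4 arrays and was not tested.

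**Figure D2:**
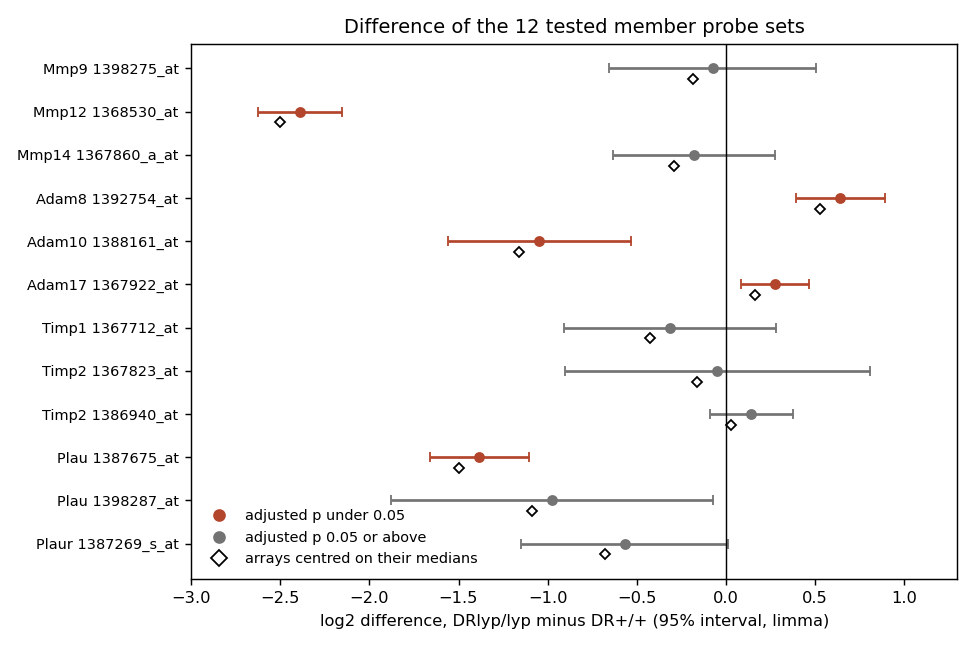
Log2 difference (x axis, DRlyp/lyp minus DR+/+) of the 12 tested member probe sets (y axis) with 95% intervals from limma, and as open diamonds the same difference with each array centred on its median. The intervals of Mmp12, both Plau probe sets and Adam10 lie below 0 and those of Adam8 and Adam17 above it, and of these Plau 1398287_at alone was not called after adjustment.

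Of the membrane Adams, Adam10 was lower and Adam8 higher, and Adam17 was called higher with the deposited scaling but not with centred arrays. Adam10, which sheds Notch receptors, the low-affinity IgE receptor and E-cadherin, read 56.0 and 68.7 on the DRlyp/lyp arrays, against 144.8 and 113.3 on the DR+/+ arrays. Every DRlyp/lyp value lay below every DR+/+ value. The log2 difference was -1.05 ± 0.24 (SE; 95% interval -1.56 to -0.53; limma adjusted p = 0.00427). Without DRlyp/lyp replicate 1 it was -0.90 and not called (adjusted p = 0.058, where 12 other settings ranged between 0.000169 and 0.307). The other Adam10 probe set, 1370955_at, read 1.9 and 15.5 in DRlyp/lyp against 18.7 and 17.8 in DR+/+, all under the filter.

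Adam17, the enzyme that releases tumour necrosis factor, read 981.2 and 1000.6 on the DRlyp/lyp arrays, against 856.7 and 780.5 on the DR+/+ arrays. The groups did not overlap, and the means were 991 ± 13.7 and 819 ± 53.9 (SD, n = 2 arrays each). The log2 difference of 0.28 ± 0.09 (SE; 95% interval 0.08 to 0.47) passed the threshold (limma adjusted p = 0.0264). With centred arrays it was 0.16 and not called (adjusted p = 0.264). Nor did it pass with DRlyp/lyp replicate 1 left out (0.29, adjusted p = 0.135), with DRlyp/lyp replicate 2 left out (0.26, adjusted p = 0.166) or with DR+/+ replicate 2 left out (0.21, adjusted p = 0.096), and over 13 other settings the adjusted p ranged between 0.00861 and 1.

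Adam8, a myeloid Adam that cleaves adhesion molecules and is not held back by Timps, read 504.8 and 515.0 on the DRlyp/lyp arrays, against 314.7 and 338.9 on the DR+/+ arrays. Its means were 510 ± 7.21 and 327 ± 17.1 (SD, n = 2 arrays each). The log2 difference was 0.64 ± 0.11 (SE; 95% interval 0.39 to 0.89; limma adjusted p = 0.000962). It was called with each array left out in turn and with centred arrays, where it was 0.53. The second Adam8 probe set, 1391720_at, read at most 1.7 on any array, far below the filter, so 1 probe set alone carries the Adam8 result.

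The Timp inhibitors did not pass the threshold. Timp1, a secreted inhibitor that stimulated cells induce, read 59.2 and 62.1 in DRlyp/lyp, against 62.3 and 91.2 in DR+/+. The DRlyp/lyp values lay just below the lower DR+/+ value, and the DR+/+ arrays lay far apart. The log2 difference was -0.31 (95% interval -0.91 to 0.28; limma adjusted p = 0.389). Timp2, which inhibits metalloproteases and also helps Mmp14 to activate Mmp2, read 523.7 and 499.3 in DRlyp/lyp against 451.5 and 474.7 in DR+/+ with probe set 1386940_at. That is a log2 difference of 0.14 (95% interval -0.09 to 0.38; limma adjusted p = 0.313), or 0.03 with centred arrays. Its dimmer probe set, 1367823_at, read 33.4 and 25 in DRlyp/lyp against 26.2 and 34.0 in DR+/+, close to the filter and with overlapping groups.

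The urokinase gene stood lower in the DRlyp/lyp pool. With probe set 1387675_at, Plau read 183.8 and 197.1 on the DRlyp/lyp arrays, against 493.1 and 499.8 on the DR+/+ arrays. The means were 190 ± 9.4 and 496 ± 4.74 (SD, n = 2 arrays each), a gap far wider than the spread within either pool. The log2 difference was -1.38 ± 0.13 (SE; 95% interval -1.66 to -1.11; limma adjusted p = 8.9e-06), and it was called under all 13 other settings, between -1.50 and -1.18. The second Plau probe set, 1398287_at, read 19.0 and 16.6 in DRlyp/lyp against 37.4 and 32.6 in DR+/+, in the same direction. It lay below the filter on both DRlyp/lyp arrays and was tested only because of the DR+/+ arrays. Its signal was at least 1.23-fold lower with the DRlyp/lyp pool set at the filter, and it was not called (limma adjusted p = 0.081).

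Plaur, the receptor that holds urokinase at the cell surface, read 64.4 and 47.5 in DRlyp/lyp, against 76.4 and 88.0 in DR+/+. Both DRlyp/lyp arrays lay below both DR+/+ arrays, but the log2 difference of -0.57 ± 0.27 (SE; 95% interval -1.15 to 0.01) did not pass the threshold (limma adjusted p = 0.112). The ending s in this probe set's name, 1387269_s_at, marks probes that can also match other transcripts. Plaur's other probe set, 1371286_at, read at most 10.4 on any array.

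The Plau and Adam8 promoter windows are shown because these members stood on opposite sides of 0 and kept their calls with each array left out in turn. Both lie on the minus strand of GRCr8, at chr15:3511938-3512237 for Plau and chr1:204218273-204218572 for Adam8, and are written in the direction of the gene. Capitals mark the GC box letters GGGCGG on either strand.
Plau: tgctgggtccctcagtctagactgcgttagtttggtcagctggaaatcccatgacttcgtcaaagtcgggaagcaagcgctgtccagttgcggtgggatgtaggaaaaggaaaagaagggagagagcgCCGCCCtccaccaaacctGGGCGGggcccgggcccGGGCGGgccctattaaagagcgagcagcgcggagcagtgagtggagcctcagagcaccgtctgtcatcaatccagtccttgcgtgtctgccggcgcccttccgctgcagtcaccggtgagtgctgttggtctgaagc
Adam8: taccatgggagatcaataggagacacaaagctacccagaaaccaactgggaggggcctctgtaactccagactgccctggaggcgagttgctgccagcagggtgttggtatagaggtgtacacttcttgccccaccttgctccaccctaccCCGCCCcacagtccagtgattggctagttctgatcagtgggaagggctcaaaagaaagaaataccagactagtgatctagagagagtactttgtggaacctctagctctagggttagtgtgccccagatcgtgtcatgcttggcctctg
Plau held 3 such matches, beginning 122, 104 and 87 bases before the start, and Adam8 held 1, beginning 99 bases before it. The letters were found in 33.1% of all windows and in 6 of the 8 members with a window, among them Adam10, Adam17, Timp1 and Timp2. Members that were lower, higher and not called all held them.

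**Figure D3:**
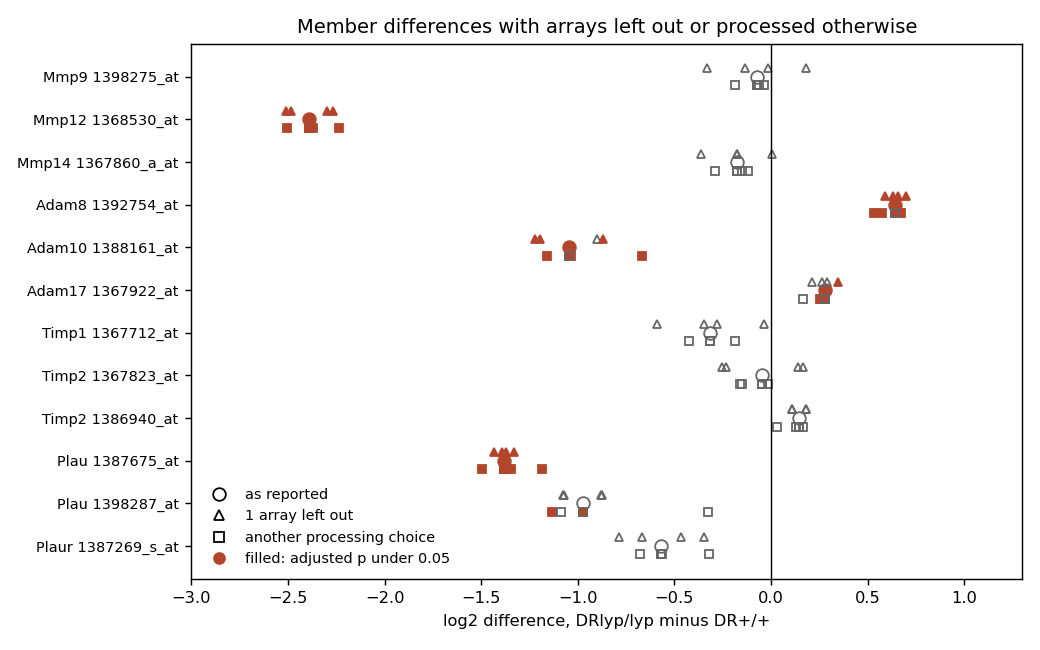
Log2 difference (x axis, DRlyp/lyp minus DR+/+) of the 12 tested member probe sets (y axis) as reported (large circles), with 1 array left out (triangles) and with another processing choice (squares); filled marks have an adjusted p under 0.05. Mmp12 and Plau 1387675_at stay filled throughout, while Adam17 is filled in some settings and open in others.

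The wider families held few measurable genes beside the members. Of 14 other Mmps on the array 3 were tested, and 0 were higher and 1 lower: the neutrophil collagenase Mmp8 read 10.9 and 27.0 in DRlyp/lyp against 49.7 and 46.6 in DR+/+. Its DRlyp/lyp signal was under the filter on each array, so it was at least 1.7-fold lower (limma adjusted p = 0.0247). It was tested only because its DR+/+ arrays, the brighter ones, passed the filter, so nothing is read from its call. It missed the threshold when DRlyp/lyp replicate 1 (adjusted p = 0.206), DR+/+ replicate 1 (0.0989) or DR+/+ replicate 2 (0.0807) was left out. Of 6 other Adams tested 2 were higher and 0 lower, where 20.9% of all 9349 genes were higher and 21.1% lower. Adam19, a membrane Adam, read 349.5 and 300.8 in DRlyp/lyp against 208.6 and 161.3 in DR+/+ (log2 difference 0.82, limma adjusted p = 0.00204), but missed the threshold with DRlyp/lyp replicate 1 left out (0.71, adjusted p = 0.0561). Adam4 read 77.6 and 88.0 in DRlyp/lyp against 38.2 and 59.5 in DR+/+ (0.79, limma adjusted p = 0.0475) and lost its call in 3 of 4 fits that left out an array, with adjusted p up to 0.254, and with centred arrays (0.0811). Of 3 Adamts genes tested 1 was higher, Adamts15 at 43.9 and 56.2 in DRlyp/lyp against 28.8 and 11.8 in DR+/+ (1.43, limma adjusted p = 0.0281). Its difference was 0.79 and not called without DR+/+ replicate 2 (adjusted p = 0.12), and the call was also lost without either DRlyp/lyp array (adjusted p = 0.109 and 0.207). Among the inhibitors only Reck was tested, at 197.3 and 155.5 in DRlyp/lyp against 160.1 and 147.8 in DR+/+ (limma adjusted p = 0.44). Timp3 and Timp4 lay below the filter on all 4 arrays.

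Plasminogen itself, Plg, and the tissue activator Plat lay below the filter on all 4 arrays. Of 11 other genes of the plasminogen system tested, 3 were higher and 2 lower, and their median log2 difference was -0.01. The shares over all 9349 genes tested were 20.9% higher and 21.1% lower. Annexin A2, Anxa2, which binds plasminogen at the cell surface together with S100a10, read 2635.6 and 2857.7 in DRlyp/lyp against 1667.8 and 1731.7 in DR+/+ (log2 difference 0.69, limma adjusted p = 1.33e-05). Its partner S100a10 read 1487.2 and 1677.3 in DRlyp/lyp against 1757.3 and 2084.3 in DR+/+, a log2 difference of -0.28 that was called (limma adjusted p = 0.0306) but missed the threshold with either DRlyp/lyp replicate 1 left out (adjusted p = 0.272) or, instead, DR+/+ replicate 2 (0.228). Sorl1, an endocytic receptor that can bind urokinase, read 2754.6 and 2836.9 in DRlyp/lyp against 1876.0 and 2000.6 in DR+/+ (0.53), but 4 of its 7 other tested probe sets had the opposite sign. Itgb2, the integrin beta 2 chain, read 2070.9 and 1975.1 in DRlyp/lyp against 1750.4 and 1790.6 in DR+/+ (0.19, limma adjusted p = 0.0385) and was not called in any of the 4 fits that left out an array (adjusted p between 0.0625 and 0.25) nor with centred arrays (0.08, adjusted p = 0.541). Itgam, the integrin alpha M chain, which can associate with Plaur, read 70.1 and 72.2 in DRlyp/lyp against 131.9 and 122.3 in DR+/+ (log2 difference -0.84, limma adjusted p = 0.00808). It was not called with DRlyp/lyp replicate 1 (adjusted p = 0.0657) or DRlyp/lyp replicate 2 (0.0547) left out.

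Among 10 tested partners of Adam10, Adam17 and Mmp14, 0 were higher and 4 lower, where 20.9% of all 9349 genes were higher and 21.1% lower. The list's median was -0.15. Rhbdf2, the inactive rhomboid that carries Adam17 to the cell surface, read 151.2 and 127.8 on the DRlyp/lyp arrays, against 259.2 and 285.0 on the DR+/+ arrays. Its log2 difference of -0.97 (limma adjusted p = 0.000651) was opposite in sign to that of Adam17. Tspan15, a tetraspanin that binds Adam10, read 30.8 and 13.5 in DRlyp/lyp against 94.7 and 100.6 in DR+/+ (log2 difference -2.26, limma adjusted p = 0.000802). Its DRlyp/lyp values lay near or below the filter of 28.3, so the size of this difference is uncertain. Tspan33, another tetraspanin of Adam10, read 239.6 and 216.8 in DRlyp/lyp against 378.4 and 303.5 in DR+/+ (-0.57). Basigin, Bsg, which induces metalloproteases in neighbouring cells, read 276.4 and 358.6 in DRlyp/lyp against 457.0 and 545.7 in DR+/+ (-0.67), and missed the threshold with DRlyp/lyp replicate 1 left out (adjusted p = 0.079). Furin, which removes the inhibitory prodomain of Mmp14 and several Adams, read 99.3 and 103.7 in DRlyp/lyp against 94.6 and 97.2 in DR+/+ (0.08, limma adjusted p = 0.786).

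Of 23 tested genes for surface proteins known to be shed, 5 were higher and 11 lower. Over all 9349 genes tested, 20.9% were higher and 21.1% lower. The list's median was -0.36. Lower were Vcam1, an adhesion molecule, at 1074.2 and 1015.3 in DRlyp/lyp against 2878.7 and 2875.0 in DR+/+ (-1.46), and Cxcl16, a membrane-bound chemokine, at 617.7 and 588.7 in DRlyp/lyp against 1332.2 and 1313.5 in DR+/+ (-1.13). Mertk, a receptor for dying cells, was also lower at 96.9 and 68.1 in DRlyp/lyp against 146.0 and 159.5 in DR+/+ (-0.91), but not called with DRlyp/lyp replicate 2 left out (adjusted p = 0.0962). The higher ones included the prion protein Prnp, at 2501.4 and 2279.4 in DRlyp/lyp against 587.1 and 489.2 in DR+/+ (2.16), Notch1, at 473.0 and 424.7 in DRlyp/lyp against 171.5 and 257.8 in DR+/+ (1.09), and Spn, the sialophorin CD43, at 2498.7 and 2497.2 in DRlyp/lyp against 1603.3 and 1620.1 in DR+/+ (0.63). Tumour necrosis factor, Tnf, read 173.8 and 198.8 in DRlyp/lyp against 152.8 and 119.1 in DR+/+ and did not pass the threshold (0.46, limma adjusted p = 0.0682). These are transcript levels, and shedding of the proteins was not measured.

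Of 26 matrix protein genes, 20 lay below the filter on all 4 arrays, among them the Mmp12 substrate elastin (Eln). Of 4 tested, 3 were higher and 0 lower, where 20.9% of all 9349 genes were higher and 21.1% lower. Fibronectin, Fn1, read 2430.3 and 2327.4 in DRlyp/lyp, against 791.1 and 921.4 in DR+/+ (1.48, limma adjusted p = 2.36e-07). Versican, Vcan, read 295.6 and 286.1 in DRlyp/lyp against 50.3 and 88.1 in DR+/+ (2.13), and fibrillin 1, Fbn1, read 99.6 and 98.6 in DRlyp/lyp against 29.9 and 45.5 in DR+/+ (1.43). Other tested Vcan probe sets gave 1.87, 1.18 and 0.68, the last not called (limma adjusted p = 0.218).

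**Figure D4:**
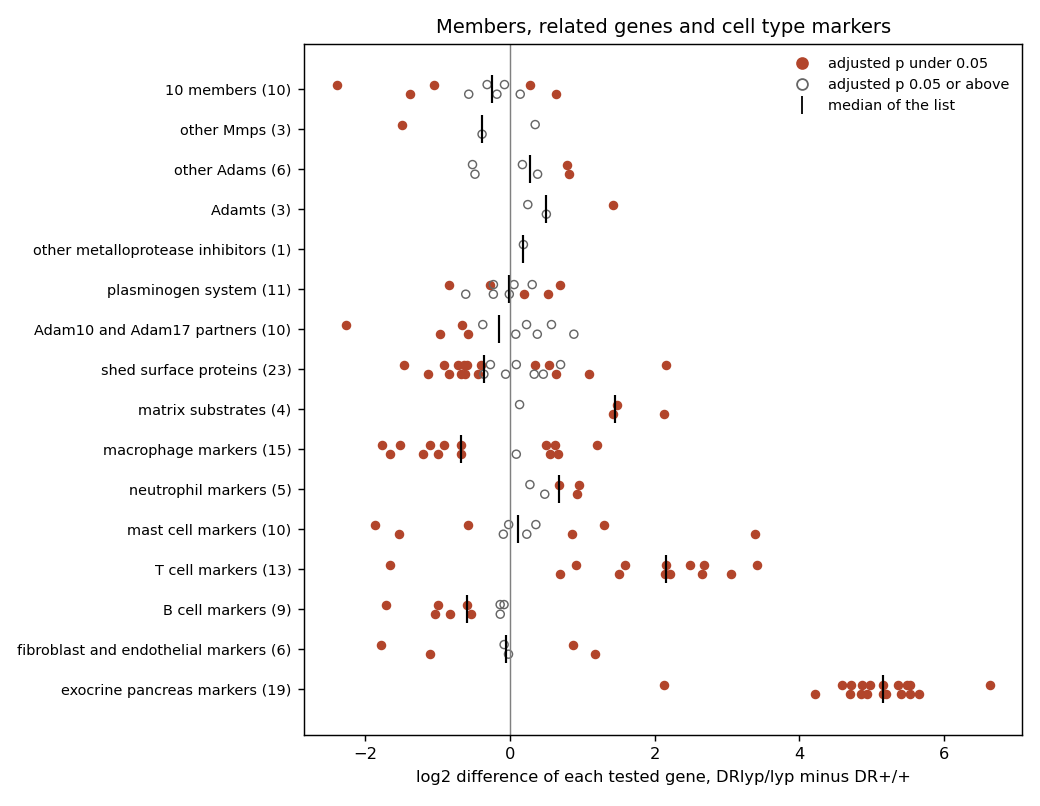
Log2 difference (x axis, DRlyp/lyp minus DR+/+) of each tested gene in the members, the related gene lists and the cell type marker lists (y axis, number tested in brackets), by the gene's brightest tested probe set; filled circles have an adjusted p under 0.05 and bars are list medians. The members spread on both sides of 0, and differences of exocrine pancreas markers depend on the floor because 13 of the 19 were dim in DR+/+.

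The markers of other cell types moved with the pools beside these results. Their counts, here and in the next paragraph, stand beside shares of 20.9% higher and 21.1% lower over all 9349 genes tested. Of 15 macrophage markers tested, 5 were higher and 9 lower; their median was -0.68 and 0 lay below the filter. Their summed signal was 20107 to 20381 in DRlyp/lyp, against 21705 to 22170 in DR+/+. The lysozyme Lyz2 alone gave 10794.5 and 10459.1 in DRlyp/lyp against 7377.4 and 7127.4 in DR+/+, and without it the sums were 9586 to 9648 in DRlyp/lyp against 14328 to 15043 in DR+/+. Among them the complement chain C1qb read 285.0 and 337.5 in DRlyp/lyp against 833.8 and 952.1 in DR+/+ (-1.52), Gpnmb, a macrophage glycoprotein, read 560.9 and 641.9 in DRlyp/lyp against 1920.5 and 1863.5 in DR+/+ (-1.66), and the iron exporter Slc40a1 read 171.7 and 184.1 in DRlyp/lyp against 610.5 and 598.3 in DR+/+ (-1.77). Other tested Slc40a1 probe sets gave smaller differences of -0.97 and -0.58, both called. C1qb, Gpnmb and Slc40a1 differed in the direction of Mmp12, while Cd68 read 2512.5 and 2567.8 in DRlyp/lyp against 1746.0 and 1846.1 in DR+/+ (0.50), and Clec10a (1.21), Mrc1 (0.67) and Itgax (0.62) were higher. Clec10a and Itgax lost their calls without a filter, and Itgax and Mrc1 in the test against a 1.5-fold difference. Mrc1 also lost its call without DRlyp/lyp replicate 1, where the difference was 0.61. Of 5 neutrophil markers tested 3 were higher and 0 lower. Fcnb (0.96) and S100a8 (0.92) lost their calls without a filter, a setting with 1671 calls in all against 6302 in the main fit. Csf3r (0.68) and S100a8 lost theirs in the test against a 1.5-fold difference. S100a8 also lost it without an intensity trend (limma adjusted p = 0.0519) and without DRlyp/lyp replicate 2, where the difference was 0.84. Csf3r also lost it without DRlyp/lyp replicate 1, where the difference was 0.66. Sums over the 8 neutrophil markers on the array were 3189 to 3236 in DRlyp/lyp against 1686 to 2006 in DR+/+. Lcn2, Np4 and Cxcr2 lay below the filter throughout. The T cell markers gave 12 higher and 1 lower of 13, with sums of 11042 to 11155 in DRlyp/lyp against 2436 to 2684 in DR+/+. Cd3e was among the higher, at 781.2 and 882.2 in DRlyp/lyp against 75.5 and 80.7 in DR+/+ (3.41). Its other tested probe set gave a smaller difference of 0.85 (limma adjusted p = 0.0466). The lower one was Cd4, under the filter on both DRlyp/lyp arrays and tested only through the DR+/+ arrays, so nothing is read from its call. Cd28 lay below the filter throughout. Of 9 B cell markers 0 were higher and 6 lower, with sums of 12434 to 13074 in DRlyp/lyp against 16433 to 17616 in DR+/+ and 0 below the filter.

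Mast cell markers divided, with 3 higher and 3 lower of 10. Il1rl1, the receptor of interleukin 33, read 119.9 and 113.8 in DRlyp/lyp against 10.3 and 12.1 in DR+/+, below the filter there. Il1rl1 was tested only because its DRlyp/lyp arrays passed the filter, so nothing is read from its call. The tryptase Tpsb2 read 34.4 and 28.7 in DRlyp/lyp against 92.6 and 89.4 in DR+/+. Fcer1a (higher, 0.85) and Hpgds (lower, -0.58) lost their calls without an intensity trend (limma adjusted p = 0.137 and 0.12). Fcer1a fell to 0.38 without DR+/+ replicate 2, and Hpgds to -0.31 without DR+/+ replicate 1. Sums over the 12 mast cell markers on the array were 2952 to 3047 in DRlyp/lyp, against 1956 to 2033 in DR+/+. Without the protease Mcpt1 they were 1350 to 1382 in DRlyp/lyp against 1301 to 1364 in DR+/+, and overlapped. All 19 exocrine pancreas markers tested were called higher. Of these, 13 were tested only through the DRlyp/lyp arrays, where they were high, so nothing is read from their calls. Sums over the 19 were 12099 to 12577 in DRlyp/lyp against 451 to 496 in DR+/+. Of 6 fibroblast and endothelial markers 2 were higher and 2 lower, with sums of 969 to 981 in DRlyp/lyp against 1084 to 1124 in DR+/+ that without Kdr were 847 to 874 in DRlyp/lyp against 698 to 733 in DR+/+, and 7 of 14, the fibroblast collagens Col1a1, Col1a2 and Col3a1 among them, lay below the filter on all arrays. The part of these cell types in the differences of Mmp12, Plau, Adam10, Adam8 and Adam17 was not tested.

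The genes whose pattern lay nearest to a member were found by the distance between the 4 log2 values after subtracting each probe set's mean. With 4 arrays in 2 pools this mostly follows the size of the difference between pools. Nearest to Mmp12 were Zfp36, which speeds mRNA decay, at 299.7 and 276.2 in DRlyp/lyp against 1375.9 and 1423.7 in DR+/+ (distance 0.17), the saposin precursor Psap (0.20) and the transporter Slc47a1 (0.32). Nearest to Plau were Tent5c (0.06), Bcar3 and Tsc22d3 (0.08 each). Nearest to Adam8 was Gpr108 (0.02), nearest to Adam10 the proteasome subunit Psmd6 (0.02) and nearest to Adam17 the splicing factor Plrg1 (0.02).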

How the data were processed

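Per the labels' design text, 1 pool of RNA from 8 animals per genotype was made, roughly 50 ng entered a 2-cycle amplification, and 2 amplifications of every pool were hybridised to an Affymetrix rat expression array. Groups and replicate numbers came from the sample titles. The values deposited by the authors are intensity on a linear scale, 1 per probe set and array, and the program that made them is not given in the sources used here. Their 2% trimmed mean was 150.1 on each array, and no further scaling was applied; detection calls did not enter.

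Of 31099 probe sets, 57 controls were left out. Signals under 6.8, the 25th percentile of all arrays together, were set to it before taking log2. A probe set was tested if it exceeded 28.3, the median of all arrays together, on 2 or more arrays. The test was limma 3.58.1 in R 4.3.3 (eBayes on an lmFit, trend by intensity, 2 residual degrees of freedom), two-sided, DRlyp/lyp minus DR+/+, with Benjamini-Hochberg adjustment over all 16068 tested and a threshold of 0.05. Folds come from the fitted log2 differences, and n = 2 counts arrays, so their number limits the precision. Where both arrays of a pool lay below 28.3, the fold is a bound against 28.3. Gene symbols are those of the platform's annotation (20826 probe sets with 1 symbol, 436 with several, 9780 with none). Promoter windows are from RefSeq, GRCr8; 8 of 10 members matched.

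A gene outside the members was represented by its tested probe set of highest mean log2 signal. Named were all member probe sets, from each list the 3 most changed called genes in either direction (the brightest where none was called; of marker lists only some are printed) and some of the 3 nearest patterns per member; Kit, Cpa3, Cd68, Lyz2, Tnf, Tspan33, Furin, Eln and genes below the filter were named after their values were seen. The members and lists were chosen with earlier results of these data known. Lists were described by counts and medians with no list test. The fit was checked on simulated arrays.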

Additional observations from a re-analysis of the deposited data

How the results depend on the processing

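Mmp12 and Plau (1387675_at) kept direction and call under all 13 alternatives, and Adam8 under 12 of 13, the exception being the test against a 1.5-fold difference. With all arrays 6302 probe sets were called, of which 5 were member probe sets, and 32 of 61 wider list genes. Without a filter, with 31042 probe sets tested, these counts were 1671, 3 and 9. Without an intensity trend 4057 probe sets and 19 wider list genes were called, and in the test against a 1.5-fold difference 958 probe sets, 2 member probe sets and 6 wider list genes. With 1 array left out the counts ranged from 3478 to 5800 probe sets, 3 to 5 member probe sets and 19 to 30 wider list genes, and the lowest of each came without DRlyp/lyp replicate 1. Without DRlyp/lyp replicate 2 there were 3767 calls. The cause of these changes was not tested. Adam10 lost its call without a filter (adjusted p = 0.118), in the 1.5-fold test (0.307) and without DRlyp/lyp replicate 1. Adam17 lost it in 7 of 13 alternatives. The dimmer Plau probe set (1398287_at) gained a call with quantile normalization (-1.14, adjusted p = 0.0495) and without a trend (adjusted p = 0.0219). Differences that were not called changed sign with 1 array left out, over ranges of -0.33 to 0.18 for Mmp9, -0.36 to 0.0048 for Mmp14 and -0.26 to 0.16 for Timp2 (1367823_at). With the replicate number as a block 7044 probe sets, 5 member probe sets and 36 wider list genes were called. Deviations of same-numbered arrays correlated at 0.04, so the numbers are not shown to pair the arrays. With 1 probe set above background for most members, signal near 28.3 limits what can be said of Timp2 (1367823_at), Plau (1398287_at) and the untested probe sets.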
